A study of Mus musculus with 6 samples.

Results

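Old L1 copies were the L1 copies whose class name starts with neither L1Md nor L1_Mus, and they comprised 420 of the 13686 L1 copies that had at least 1 listed read. They belonged to 26 of 36 classes and held 2865 of 393511 listed reads, or 0.728%. By name they fell into Lx (16 classes, 356 copies, 1940 reads), L1VL (3 classes, 44 copies, 582 reads), L1_Mur (2 classes, 15 copies, 326 reads), L1M (4 classes, 4 copies, 15 reads) and MusHAL1 (1 copy, 2 reads). The listed copies spanned from 5002 to 9784 bp, so shorter remnants of these classes were not analysed here. The other 13266 copies, whose class names start with L1Md or L1_Mus, are called L1Md copies below.

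Small RNAs were sequenced from E14, a mouse embryonic stem cell (ESC) line of 129/Ola background grown without feeders, to ask whether L1-derived small RNAs depend on TET1 or TET2. The cells carried a lentiviral pLKO.1 vector that expressed a control shRNA (shScr), an shRNA against Tet1 (shTet1) or an shRNA against Tet2 (shTet2). Per the labels, all groups shared medium with 15% serum and 1000 U/ml LIF. They also shared puromycin selection at 1 µg/ml, from 24 h after infection and for 3 days. Each group had 2 libraries, 6 in all, and nothing in the labels says that the 2 came from separate cultures, so p-values measure only the spread between these samples. The files list L1 reads only, so neither the depletion of Tet1 or Tet2 RNA nor marker genes of ESCs could be checked here.

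L1 elements are retrotransposons that copy themselves through an RNA intermediate with 2 proteins of their own, and the same machinery can copy cellular mRNAs into processed pseudogenes. The classes named L1Md include the young, mobile mouse L1s, whereas copies of classes such as Lx have gathered mutations and no longer move. Small RNAs from L1s can be products of Dicer or of the piRNA pathway, which have narrow length ranges, or fragments of longer RNA with no set length. TET enzymes oxidise 5-methylcytosine in DNA.

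Some of the leading copies held the same short read many times, and others held many different reads. The following are the most frequent reads of at most 30 nt in the copies that held most reads of each class with at least 100 reads, and in the copies with at least 5% of the old L1 reads. They are examples of the reads in those copies. In Lx, Lx5 and L1_Mur1 they were a small part of the class: 19 of 596, 6 of 525 and 3 of 311 reads. Letters are as sequenced, 5′ to 3′, in lower case, with a capital where the read differs from the mm9 genome at its place, and positions in a substitution are counted from the 5′ end of the read with the genome base first.
Lx5, chr3:119412523-119412552, sense, 6 reads, C26T: aggtttgtgcggacttgatcagaggTgcca
L1VL1, chr2:39702353-39702369, sense, 68 reads: caggatcacagaaaaaa
L1VL1, chr15:17747076-17747090, antisense, 111 reads, T1A: Atttcggttgggaca
L1_Mur1, chrX:76440703-76440731, sense, 3 reads: gcgaaaggaacgcaagaacagaatgaaga
Lx2, chr2:61945150-61945168, antisense, 83 reads, T10A: tattgtggaAgttctgagc
Lx, chr6:142791870-142791886, sense, 19 reads: gggagtaactatgactt
Lx3_Mus, chr6:65996925-65996939, antisense, 30 reads: gtgtgctgtaggctt
Of these 7 reads, the 2 longest lay in gene-like segments of their copies, whereas the 5 others were between 15 and 19 nt and each was repeated at a single place. Among all old L1 reads, 1684 (58.8%) matched the genome exactly at their place and 1106 (38.6%) had 1 mismatch.

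The number of old L1 reads was lower in both knockdowns, as was the number of all listed reads. The shScr libraries listed 754 and 897 old L1 reads, the shTet1 libraries 108 and 175, and the shTet2 libraries 686 and 245. Both knockdowns lay below shScr without overlap. On the log2 scale, mean shTet1 was -2.54 and mean shTet2 -0.83 relative to mean shScr (permutation test, exact and two-sided, p = 0.333 for each, the smallest that 2 libraries against 2 allow). The files list from 11566 to 128715 L1 reads per library and no total of the whole library, so a lower number of L1 reads and a shallower library cannot be told apart.

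As a share of the listed reads, old L1 reads were higher on average in both knockdowns, and the groups overlapped once the 3 L1Md copies with most reads were set aside. The share was 0.601% and 0.697% with shScr, 0.934% and 0.745% with shTet1 and 0.989% and 0.702% with shTet2. All 4 knockdown libraries lay above both shScr libraries, with the second shTet2 library close to the upper shScr library. Means were 0.649% ± 0.0679 for shScr, 0.840% ± 0.133 for shTet1 and 0.845% ± 0.203 for shTet2 (SD, n = 2), or 0.191 and 0.197 percentage points above shScr (exact permutation test, p = 0.333 for each). Those 3 L1Md copies held 316511 reads between them. Among reads outside them the share was 3.12% and 3.998% with shScr, 3.55% and 4.35% with shTet1 and 3.84% and 4.48% with shTet2, and the groups overlapped. The means were 0.386 percentage points above shScr for shTet1 and 0.595 for shTet2 (exact permutation test, p = 0.667 for each). With reads of the same position, strand and length counted once, the share was 1.88% and 2.22% with shScr, 1.95% and 2.37% with shTet1 and 2.48% and 2.29% with shTet2. The shTet1 difference was then 0.106 percentage points with overlapping groups, and the shTet2 difference 0.328 with both libraries above shScr (exact permutation test, p = 0.667 and 0.333). Wilson 95% intervals for the first share ran from 0.774% to 1.13% in the smallest library and from 0.653% to 0.744% in the largest, and cover counting error only, since reads had no molecular identifiers. A count of 0 old L1 reads would have allowed a share of up to 0.0259% in the smallest library.

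**Figure D1:**
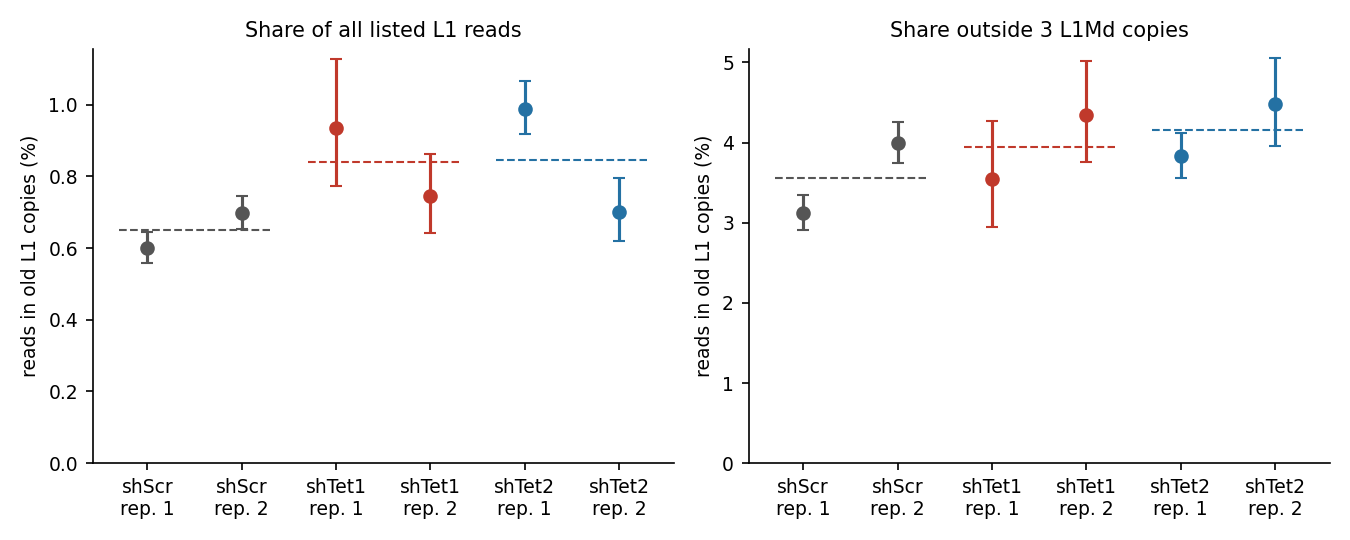
Percent of reads in old L1 copies in each library (points; bars, Wilson 95% intervals; dashed lines, group means), among all listed L1 reads on the left and among reads outside the 3 L1Md copies with most reads on the right. On the left the 4 knockdown libraries lie above both shScr libraries, from 0.702% to 0.989% against 0.601% and 0.697%; on the right the groups overlap.

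Old L1 reads were concentrated in 6 classes. Lx held 596 reads, Lx5 525, L1VL1 470, L1_Mur1 311, Lx2 236 and Lx3_Mus 214, together 82.1% of the old L1 reads. The 20 other classes held between 1 and 78 reads each and 513 in all. At the level of copies, 138 of 420 had a single read, and 41 copies with at least 10 reads held 1879 reads. Single copies held a large part of several classes: 69.5% of Lx5 reads lay in 1 copy on chromosome 3, 47.3% of L1_Mur1 in 1 copy on chromosome X, 44.1% of Lx2 and 43.0% of L1VL1 in 1 copy each on chromosome 2, and 22.0% of Lx3_Mus in 1 copy on chromosome 6. Lx was spread more widely, with 137 copies and 9.06% of its reads in the copy with most.

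By position, 320 of the 420 copies (76.2%) overlapped no annotated gene and held 74.7% of the reads. A further 75 copies lay within protein-coding genes on the opposite strand and 10 on the same strand, all without touching an exon. The remaining 15 overlapped other genes only, 3 of them an exon of that gene.

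The reads were divided into 3 kinds, a division chosen after the reads had been seen. Gene segments were parts of a copy at least 95% identical over at least 100 bp to a protein-coding transcript that matches at most 2 old copies, or an annotated gene inside the copy, with at least 10 reads. Single positions were groups of at least 10 reads on the same strand of a copy whose successive 5′ ends lay at most 3 nt apart. All other reads were called scattered. Gene segments held 581 reads (20.3%) in 6 copies, single positions 1044 reads (36.4%) in 21 copies, and scattered reads numbered 1240 (43.3%) in 411 copies.

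These kinds differed in length and strand. Gene-segment reads had a median length of 32 nt, 13.9% were of 15 to 19 nt, and 4.13% were antisense to the L1 copy. Single-position reads had a median of 17 nt, 96.4% were of 15 to 19 nt, and 38.4% were antisense. Scattered reads had a median of 19 nt, 50.2% were of 15 to 19 nt, and 52.7% were antisense. Of the scattered reads, 41.1% were made of 15-nt words that at least 5 other listed L1 copies carry, against 12.4% of single-position reads and 0% of gene-segment reads. Reads that fit several places equally well had been assigned to any of them at random, so for shared reads the copy and the class are uncertain.

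The share of each kind did not separate the groups. Gene segments made up 22.4% and 18.7% of old L1 reads with shScr, 16.7% and 20% with shTet1 and 20.99% and 19.2% with shTet2. Single positions made up 28.4% and 41.8% with shScr, 38.9% and 34.3% with shTet1 and 38.8% and 35.5% with shTet2. Scattered reads made up 49.2% and 39.5% with shScr, 44.4% and 45.7% with shTet1 and 40.2% and 45.3% with shTet2. Every comparison with shScr overlapped (exact permutation test, p from 0.667 to 1), and the shScr libraries differed most from each other in single positions.

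**Figure D2:**
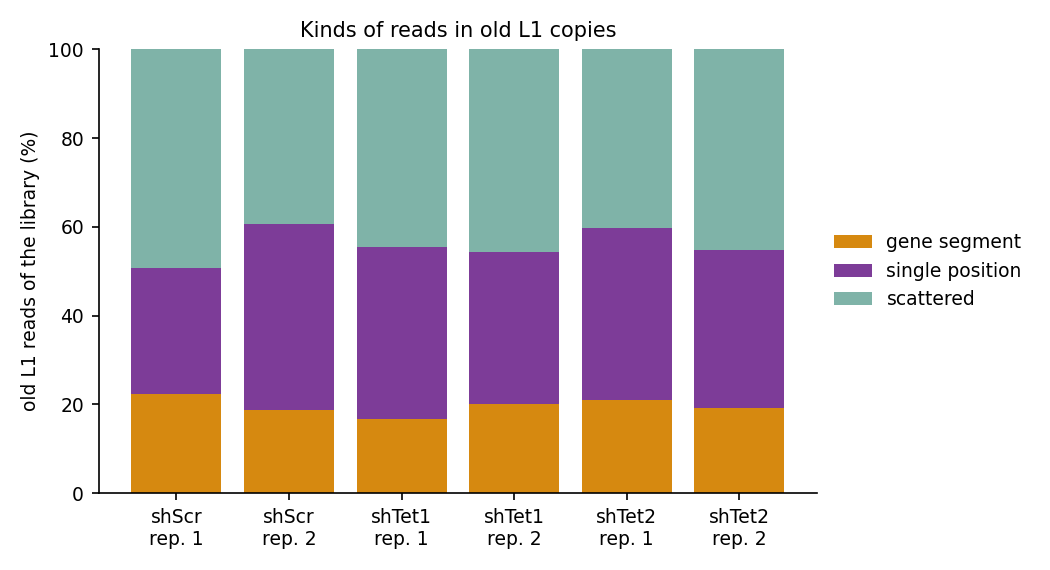
Percent of old L1 reads of each library in gene segments, single positions and scattered reads (stacked bars, each library adding to 100). Gene segments range from 16.7% to 22.4% and the groups overlap for each kind.

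The copy with most reads was an Lx5 copy on chromosome 3 (mm9, 119410155 to 119415256 as listed, plus strand), outside annotated genes. It held 104 and 103 reads with shScr, 11 and 19 with shTet1 and 98 and 30 with shTet2, 365 in all and 12.7% of the old L1 reads. Of these, 359 lay in 391 bp (119412433 to 119412823) that were 99.2% identical to the transcript of Rps20, which encodes a protein of the small ribosomal subunit. All 359 were in the sense of Rps20. Each had as many mismatches to the copy as to the Rps20 transcript, and 176 crossed a junction between 2 exons of that transcript, where the gene on chromosome 4 (3758481 to 3762812, minus strand) has an intron. The reads therefore could not be assigned to the Lx5 copy rather than to Rps20. Outside the segment, Lx5 had 67 single-position reads in another copy and 99 scattered reads, of which 6 were antisense reads in this copy.

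The L1_Mur1 copy on chromosome X (76435693 to 76441642, plus strand) was of the same kind. It held 43 and 47 reads with shScr, 4 and 12 with shTet1 and 30 and 11 with shTet2. Of its 147 reads, 146 lay in 505 bp (76440356 to 76440860) that were 98.8% identical to the transcript of Rps24, another protein of the small ribosomal subunit, and the annotation names the pseudogene Rps24-ps3 there. Of the 146, 129 had equal numbers of mismatches to both, 14 fewer to the Rps24 transcript and 3 fewer to the copy.

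Smaller segments of this kind lay in 4 other copies, named after their values were seen. An Lx copy on chromosome 12, in an intron of Ptprn2, had 25 reads in a segment 97.9% identical to Hmgn2, a nucleosome-binding protein. An Lx copy on chromosome X had 23 reads in a segment 98.5% identical to H3f3a, a histone H3 gene, annotated as H3f3a-ps1. An L1VL2 copy on chromosome 13 had 18 reads in a segment 95.2% identical to Gm16378, of which 10 had fewer mismatches to the copy and none fewer to the transcript. An Lx2 copy on chromosome 13 had 10 reads in the annotated pseudogene Gm11383.

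Reads repeated at a single position made up most of L1VL1, with 447 of its 470 reads. The L1VL1 copy on chromosome 2 (39697286 to 39702792, minus strand, outside annotated genes) held 53 and 97 reads with shScr, 4 and 14 with shTet1 and 14 and 20 with shTet2. All were sense, and 2 positions held nearly all of them, 118 reads at 423 bp and 81 reads at 2702 bp from the 5′ end of the copy, with 3 reads elsewhere. The second position had 16 and 46 reads with shScr, 0 and 6 with shTet1 and 2 and 11 with shTet2. Per 1000 old L1 reads of the library these were 21.2 and 51.3, 0 and 34.3, and 2.92 and 44.9, and the groups overlapped. The L1VL1 copy on chromosome 15 (17743950 to 17749127, plus strand, outside annotated genes) held 17 and 83 reads with shScr, 12 and 11 with shTet1 and 16 and 15 with shTet2. All of its reads were antisense, and 153 of 154 lay at a single position 3125 bp from the 5′ end. In both copies the second shScr library held more reads than the first, and at the chromosome 15 position it held 53.6% of the reads of all 6 libraries.

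The other leading copies also had their reads at single positions. The Lx2 copy on chromosome 2 (61945143 to 61950703), in an intron of Slc4a10, a bicarbonate transporter gene on the opposite strand, held 15 and 47 reads with shScr, 4 and 10 with shTet1 and 13 and 15 with shTet2, all antisense to the copy. The Lx copy on chromosome 6 (142787706 to 142793042), in an intron of St8sia1, a sialyltransferase gene on the same strand, held 6 and 17 reads with shScr, 1 and 1 with shTet1 and 28 and 1 with shTet2, all sense. The Lx3_Mus copy on chromosome 6 (65991543 to 65998202, outside annotated genes) held 11 and 13 reads with shScr, 1 and 4 with shTet1 and 13 and 5 with shTet2, all antisense. In the Lx copy, 28 of the 29 shTet2 reads came from the first library.

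**Figure D3:**
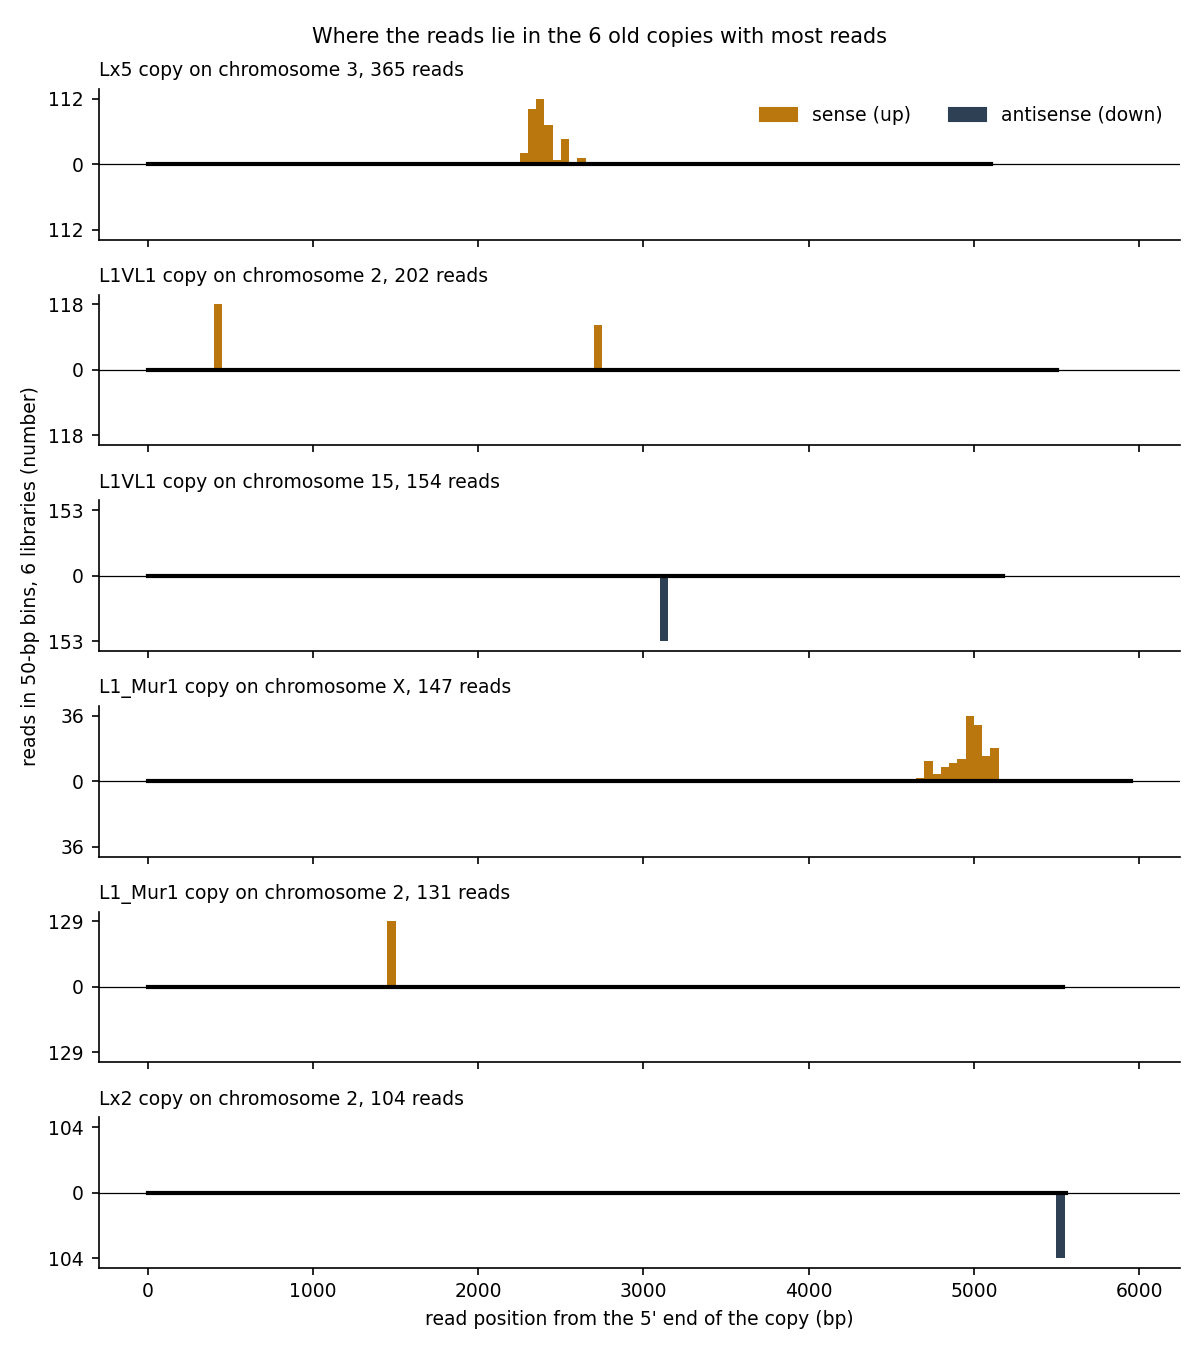
Reads of the 6 libraries along the 6 old L1 copies with most reads, in bins of 50 bp by distance from the 5′ end of the copy (sense reads up, antisense reads down; thick line, the copy; each panel with its own scale). In 2 copies the reads cover a segment of 391 or 505 bp, and in the other 4 nearly all stand at 1 or 2 places.

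Over all classes there were 22 single positions, 14 sense and 8 antisense. At 14 of them the most frequent read differed from the genome at its place by 1 base, and 8 had reads in all 6 libraries. Reads were compared with other repeated sequences of these libraries, and 5.75% of single-position reads lay within 1 mismatch of the narrow windows that hold most reads of the 3 leading L1Md copies. Another 11.1% lay within 1 mismatch of the 6000 bp of chromosome 17 (39979773 to 39985772) that end with the gene AY036118. RefSeq places a pseudogene of 18S ribosomal RNA, Rn18s-rs5, beside that gene. All matches to the windows were in the direction of most reads of those L1Md copies. All matches to the chromosome 17 sequence were on its plus strand, whereas AY036118 lies on the minus strand. None was found on the reverse strand. Of scattered reads, 0.968% and 2.42% matched the windows and the chromosome 17 sequence, and of gene-segment reads none did.

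Of the 22 single positions, 2 consisted mostly of reads that matched the windows and 2 of reads that matched the chromosome 17 sequence. The positions given here were named after their values were seen. At an Lx5 copy on chromosome 4, 66 of 67 reads matched the chromosome 17 sequence. At an Lx copy on chromosome 6 (101568760, as listed), 34 of 38 did, and its most frequent read differed from its own place by T6G. That read sequence was listed 491 times over all L1 copies, and 25 of these were placed here. At the Lx position in St8sia1, 48 of 48 matched the L1Md windows. For comparison, the position with 129 reads in an L1_Mur1 copy on chromosome 2 matched neither, with 4 mismatches as the fewest to the chromosome 17 sequence.
Lx5, chr4:61647967-61647982, sense, 25 reads: ggagggcaagtctggc
Lx, chr6:101570860-101570877, antisense, 25 reads, T6G: tacatGgttgatcctgcc
L1_Mur1, chr2:23127836-23127853, sense, 33 reads, A18C: tacaaggatgatccagcC
The first shTet2 library held 65 of the 129 reads at the L1_Mur1 position, against 31 and 18 in shScr, 7 and 4 in shTet1, and 4 in the other shTet2 library. It also held 17 of 20 reads at a position in an Lx2B copy on chromosome 12. Per 1000 old L1 reads of the library, the L1_Mur1 position had 41.1 and 20.1 reads with shScr, 64.8 and 22.9 with shTet1 and 94.8 and 16.3 with shTet2. The 2 shTet2 libraries stood furthest apart.

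Reads in old L1 copies were short. In every library at least 49.7% of old L1 reads were of 15 to 19 nt, with 49.7% and 62.1% with shScr, 71.3% and 60.6% with shTet1 and 65.2% and 60% with shTet2. The mean over the 6 libraries was 61.5%, against 35.8% for L1Md reads outside the 3 leading copies. The difference was 25.7 percentage points ± 5.17 (SD, n = 6), higher in 6 of 6 libraries (exact two-sided sign-flip permutation test, p = 0.03125, the smallest that 6 libraries allow). Among scattered reads alone the difference was 17.5 percentage points, also in 6 of 6 libraries (exact permutation test, p = 0.03125). The L1Md reads were not divided into kinds, so gene segments and single positions were left out on the old side only. This length range was chosen after the reads had been seen.

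Reads in the length range of Dicer products, 21 to 23 nt, or of piRNAs, 24 to 32 nt, were a minority in every library. Reads of 21 to 23 nt made up 4.91% and 4.91% of old L1 reads with shScr, 5.56% and 4.57% with shTet1 and 6.27% and 2.86% with shTet2. Reads of 24 to 32 nt made up 14.9% and 12.6% with shScr, 10.2% and 12.6% with shTet1 and 11.5% and 12.7% with shTet2. Both shTet1 libraries lay below shScr for 24 to 32 nt, the second of them at 12.57% against 12.60% in the lower shScr library, and the mean difference was -2.35 percentage points (exact permutation test, p = 0.333). Without the Rps20-like Lx5 copy described above it was -0.130 percentage points, and the groups overlapped (exact permutation test, p = 1). Within libraries, the share in old L1 copies minus that in L1Md copies was -0.993 percentage points for 21 to 23 nt and -5.35 for 24 to 32 nt, below 0 in 6 of 6 libraries (exact sign-flip permutation test, p = 0.03125 for each). Outside the 3 leading L1Md copies these differences were -5.36 and -8.06 percentage points (exact permutation test, p = 0.03125 for each). Without the first shTet1 library the 24 to 32 nt difference between shTet1 and shScr was -1.15 percentage points.

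**Figure D4:**
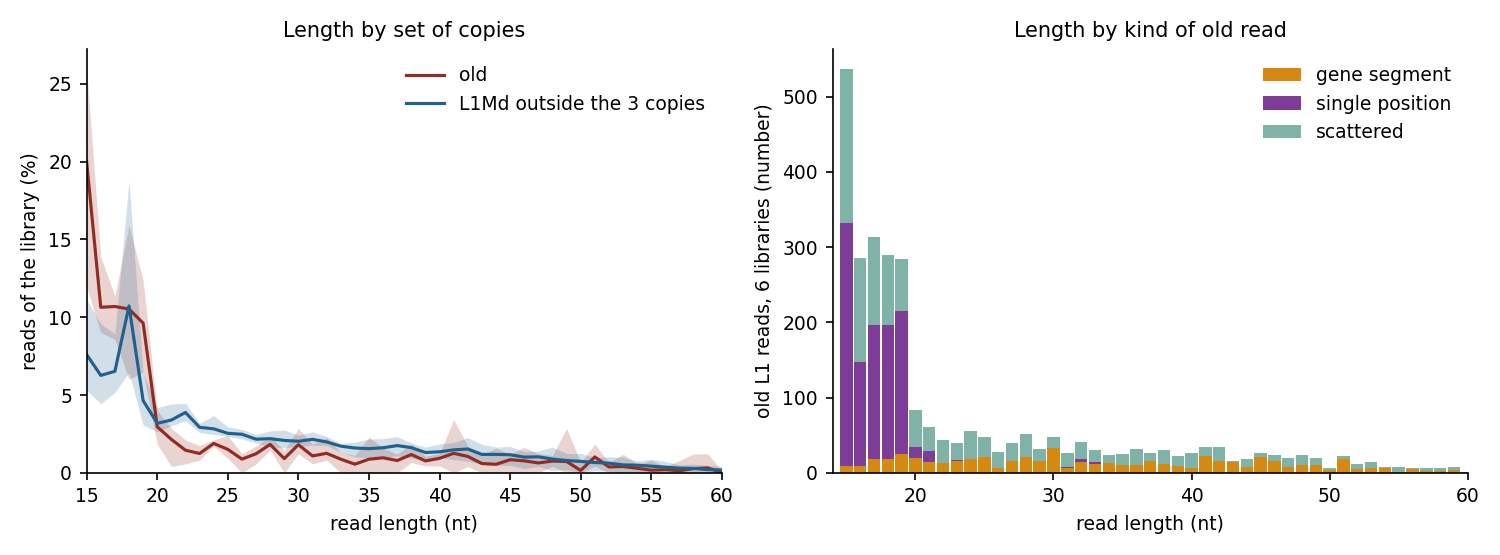
Left, percent of reads at each length for old L1 copies and for L1Md copies outside the 3 with most reads (lines, mean of 6 libraries; shading, lowest to highest library). Right, number of old L1 reads at each length by kind; lengths of 15 to 19 nt hold most reads, and the gene-segment reads, with a median of 32 nt, spread over longer lengths. Reads over 60 nt are not drawn.

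On strand, a larger part of old L1 reads than of L1Md reads was antisense. The antisense share of old L1 reads was 36.5% and 41.4% with shScr, 47.2% and 41.7% with shTet1 and 30.3% and 41.2% with shTet2. Both shTet1 libraries lay above shScr, with means of 44.5% ± 3.90 against 38.9% ± 3.46 (SD, n = 2; exact permutation test, p = 0.333), whereas shTet2, at 35.8% ± 7.71, overlapped it. The lower shTet1 library exceeded the upper shScr library by less than the width of its own Wilson interval, 34.7% to 49.1%. Within libraries the antisense share was 39.7% for old and 8.41% for L1Md copies, higher by 31.3 percentage points ± 6.75 in 6 of 6 libraries (SD, n = 6; exact permutation test, p = 0.03125). Outside the 3 leading L1Md copies the difference was 10.2 percentage points in 5 of 6 libraries (exact permutation test, p = 0.0625), and for scattered reads alone it was 24.5 in 6 of 6 (exact permutation test, p = 0.03125). In the latter the L1Md reads were again not divided into kinds.

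Classes differed in strand with the copies that led them. Over the 6 libraries, 5.47% of L1_Mur1 and 12.4% of Lx5 reads were antisense, the classes led by gene segments. In Lx2 and Lx3_Mus 66.5% and 66.4% were antisense, in L1VL1 34.04% and in Lx 51.0%. Among scattered reads alone these became 65.4% for L1_Mur1 (26 reads), 65.7% for Lx5 (99 reads), 43.4% for Lx2 (122 reads), 58.0% for Lx3_Mus (143 reads), 30.4% for L1VL1 (23 reads) and 51.4% for Lx (403 reads). These values are pooled over libraries and were not tested.

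Along the copy, the sign of the difference from L1Md copies depended on which copies were counted. Reads starting in the first 1000 bp made up 17.5% and 13.8% of old L1 reads with shScr, 15.7% and 17.1% with shTet1 and 17.4% and 15.9% with shTet2, and both knockdowns overlapped shScr (exact permutation test, p = 1 for each). Compared with all L1Md reads the share was 9.04 percentage points higher in 6 of 6 libraries (exact permutation test, p = 0.03125). Compared with L1Md reads outside the 3 leading copies the difference was -20.1 percentage points, 16.3% against 36.4%, in 6 of 6 libraries (exact permutation test, p = 0.03125). The windows that hold most reads of the 3 leading L1Md copies all lie beyond the first 1000 bp of the copy.

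The scattered reads covered the old copies thinly. They reached 411 copies, of which 143 had a single scattered read, and the copy with most, an Lx5 copy on chromosome 8, had 24. The 10 copies with most held 12.4% of them. By library they numbered 371 and 354 with shScr, 48 and 80 with shTet1 and 276 and 111 with shTet2. Among them, the share in the first 1000 bp of the copy was 21.3% and 17.8% with shScr, 27.1% and 26.3% with shTet1 and 34.1% and 25.2% with shTet2. The share of 15 to 19 nt was 43.4% and 47.2% with shScr, 60.4% and 56.3% with shTet1 and 58.0% and 54.1% with shTet2. For both shares all 4 knockdown libraries lay above both shScr libraries. L1Md reads outside the 3 leading copies, which were not divided into kinds, moved in the same direction on average. Of these, 25.8% and 31.1% with shScr, 48.3% and 29.8% with shTet1 and 47.5% and 32.1% with shTet2 were of 15 to 19 nt, and 33.2% and 34.7%, 42.0% and 37.9%, and 35.4% and 34.9% lay in the first 1000 bp. The share of 15 to 19 nt in scattered minus L1Md reads was 17.6 and 16.1 percentage points with shScr, 12.2 and 26.5 with shTet1 and 10.5 and 22.0 with shTet2, and the groups overlapped. For the first 1000 bp that difference was -11.9 and -16.9 with shScr, -14.9 and -11.6 with shTet1 and -1.35 and -9.69 with shTet2, so that shTet1 overlapped shScr and shTet2 lay above it. The means of the shares themselves exceeded shScr by 7.12 and 10.1 percentage points for the first 1000 bp and by 13.0 and 10.7 for 15 to 19 nt, in shTet1 and shTet2 respectively (exact permutation test, p = 0.333 for each, the smallest possible). These shares were computed on a set of reads defined after the data had been seen, and both knockdowns were compared with the same 2 shScr libraries.

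A first base of T, which piRNAs and many other small RNAs carry as U, was more common among antisense than among sense scattered reads. It was found in 133 of 307 antisense and 49 of 315 sense reads of 15 to 19 nt (43.3% and 15.6%), and in 53 of 114 and 27 of 94 reads of 24 to 32 nt (46.5% and 28.7%). In L1Md copies outside the 3 leading ones it was found in 35.6% of antisense and 18.7% of sense reads of 24 to 32 nt. For reads of 15 to 19 nt in those copies the shares were higher, 64.43% and 19.67%. At base 10, A was found in 33.97% of sense and 24.76% of antisense scattered reads of 15 to 19 nt. For scattered reads of 24 to 32 nt these were 45.74% and 16.67%. L1Md copies outside the 3 leading ones also had more on the sense strand, 36.04% and 10.27% for 15 to 19 nt. For 24 to 32 nt they had 36.38% and 20.93%. These are shares over pooled reads and were not tested. Whether the base content of each strand accounts for the differences in first T and in A at base 10 was also not tested. Opposite-strand pairs of scattered reads in the same copy were almost absent, with 1 pair or none at any overlap of 5′ ends from 1 to 30 nt and 0 pairs at 10 nt, the overlap known for paired piRNAs. The 1240 scattered reads lay in 411 copies, and groups of at least 10 reads at a position had been set apart. Few pairs could therefore arise, and the count cannot decide whether paired piRNAs were present.

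No old class and no old copy passed the test against shScr. Reads were tallied per class and per copy and fitted with limma's voom for all L1 classes and copies that reached 10 reads in 2 or more libraries. Of 21 classes tested, 11 were old, and 0 passed adjusted p 0.05 in either comparison, old or not (0% called). At an unadjusted p under 0.05, 3 of the 21 classes were found for shTet1 and 4 for shTet2, of which 2 and 3 were old. Of 92 copies tested, 10 were old, and again 0 passed in either comparison (0% called), and at an unadjusted p under 0.05 there were 0 of 92 for shTet1 and 2 for shTet2, of which 0 were old. The smallest limma adjusted p among old classes was 0.209 for shTet1 and 0.236 for shTet2.

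Values per class are voom's log2 CPM, that is log2 reads scaled to all listed L1 reads of the library with TMM factors. Lx had 10.39 and 10.49 with shScr, 10.80 and 10.42 with shTet1 and 10.96 and 10.65 with shTet2, a difference of 0.18 (SE 0.27, limma adjusted p = 0.863) for shTet1 and 0.45 (SE 0.16, limma adjusted p = 0.236) for shTet2. Both shTet2 libraries lay above both shScr libraries. L1VL1 had 9.59 and 10.97 with shScr, 10.36 and 10.42 with shTet1 and 9.31 and 10.83 with shTet2, a spread of over 1 log2 unit within shScr and within shTet2. Its differences were 0.11 (SE 0.92) and -0.75 (SE 0.61, limma adjusted p = 0.951 and 0.642). With reads of the same position, strand and length counted once, the L1VL1 difference for shTet1 was 0.96 (limma adjusted p = 0.0421), the only class that passed there. L1VL1 consisted mostly of repeated reads, and counting once removes more of them where a library lists more reads. Whether this has a part in that call was not tested. L1_Mur1 had 9.42 and 9.43 with shScr, 9.72 and 9.85 with shTet1 and 10.20 and 9.33 with shTet2, with differences of 0.34 (SE 0.28, limma adjusted p = 0.844) and 0.62 (SE 0.23, limma adjusted p = 0.236). Its 2 shTet1 libraries lay above shScr, and its 2 shTet2 libraries stood on either side.

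The remaining named classes did not pass either. Lx5 had 10.20 and 10.45 with shScr, 10.12 and 10.42 with shTet1 and 10.64 and 10.61 with shTet2, so that both shTet2 libraries lay above shScr. Lx5 differed by -0.08 (SE 0.25) in shTet1 and 0.31 (SE 0.17) in shTet2, Lx2 by 0.31 (SE 0.48) and 0.28 (SE 0.46), and Lx3_Mus by -0.61 (SE 0.37) and -0.03 (SE 0.49), all with limma adjusted p of 0.405 or more. Among the 5 smaller old classes tested, Lx2B had the smallest unadjusted p in shTet1, with 7.33 and 7.02 with shScr, 8.25 and 7.95 with shTet1 and 8.45 and 7.91 with shTet2 (limma adjusted p = 0.209 and 0.236). Lx2B had 78 reads in all and was named after its values were seen. Counted by overlap, 5 of 11 old classes lay above both shScr libraries in both shTet1 libraries, against 23.8% of all classes in that direction, and 0 lay below, against 9.52%. In shTet2, 3 of 11 lay above, against 19%, and 1 below, against 14.3%. All 5 classes above in shTet1 were old, and both knockdowns share their 2 shScr libraries. Most of the 5 rest on very few reads in the shTet1 libraries: 4 and 5 in L1VL2, 4 and 5 in Lx2B, 2 and 4 in L1VL4 and 2 and 3 in Lx3C. L1_Mur1 had 12 and 20. The count is therefore no measure of a trait of old classes. The directions depend on scaling: TMM lowered the differences of all classes by a median of 0.26 in shTet1 and 0.16 in shTet2, and the median over old classes was 0.18 and 0.28 with it and 0.47 and 0.39 without it.

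**Figure D5:**
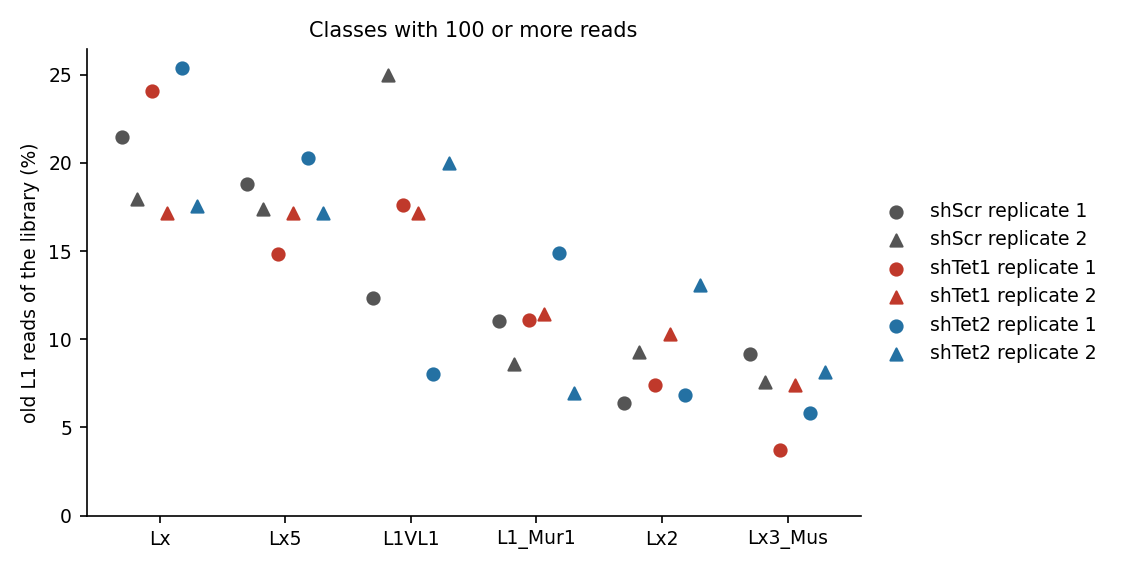
Percent of the old L1 reads of each library in the 6 classes with at least 100 reads (circles, replicate 1; triangles, replicate 2; colours, groups). L1VL1 ranges from 8.02% to 24.97%, with the shScr libraries at 12.3% and 24.97%.

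At the level of copies, the Rps20-like Lx5 copy had 10.07 and 9.82 with shScr, 9.46 and 9.97 with shTet1 and 9.67 and 10.26 with shTet2, in voom's log2 CPM with TMM factors over copies. Its differences were -0.24 (SE 0.54) and -0.04 (SE 0.47; limma adjusted p = 0.996 and 0.984). The L1VL1 copy on chromosome 2 had 9.10 and 9.74 with shScr, 8.11 and 9.55 with shTet1 and 6.90 and 9.68 with shTet2, with differences of -0.56 (SE 1.01) and -1.53 (SE 0.92; limma adjusted p = 0.996 and 0.783). Its 2 shTet2 libraries differed by more than either group did from shScr. The L1_Mur1 copy on chromosome X had differences of -0.01 (SE 0.64) and -0.45 (SE 0.57; limma adjusted p = 0.996 and 0.848). Of the 10 old copies tested, 1 lay above both shScr libraries in both shTet1 libraries, against 12% of all copies. None did so in shTet2, against 8.7%, and 0 lay below shScr in either knockdown, against 13% for shTet1 and 7.61% for shTet2.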

How the data were processed

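Per the labels, small RNA libraries were size-selected, sequenced and trimmed with Trim Galore 0.3.3 to at least 15 nt, and the authors aligned them to mm9 with Bowtie2 2.1.0, which assigns a read that fits several places equally well to any of them at random. The labels give 1 µg/ml puromycin and collection after 3 days; the methods give other values. The deposited files list reads that fall in L1 copies, a read per line with its place and its L1 copy (coordinates, class, strand), and hold no count column. The sources used here do not give how copies were selected. Copy coordinates are as listed; read coordinates are 1-based.

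Reads were grouped by library from the sample labels. Members and lists were chosen with earlier results of these data known. Classes with at least 100 old L1 reads were named, with the copy holding most reads of each and any copy with at least 5% of old L1 reads; everything else named is said to be chosen after its values were seen. Reads were compared with the NCBIM37 genome (the same build), GENCODE coding transcripts (blastn 2.17.0), and all 15-nt words of the listed copies. RefSeq names came from a table of another build, and none of its coordinates is given. Shares were compared between groups by exact permutation tests and between sets of copies by exact sign-flip tests over libraries. Reads were tallied and fitted with limma 3.58.1 (voom, R 4.3.3), all 6 libraries in 1 model, TMM factors from the published formula and Benjamini-Hochberg adjustment over all classes or all copies tested; the fit was tested on simulated data. Python 3.11.15 with pandas 2.3.3 and scipy 1.17.1 made the tables. A chi-square test over the 6 named classes gave p = 3.05e-08 between the shScr libraries, 0.55 for shTet1 and 5.86e-09 for shTet2, treating each read as a molecule. The shTet1 libraries were counted as separate because the labels number them so. Alternatives were identical reads (position, strand, length) counted once, only reads of 18 to 32 nt, removal of the leading copies, no TMM, a filter of 1 read, only the groups compared, the replicate block and each library left out.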

Additional observations from a re-analysis of the deposited data

Results flagged for a closer look

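In 2 old sets, both shTet1 libraries lay on one side of both shScr libraries and both shTet2 libraries on the other. The first was the class Lx3C, with 18 and 15 reads with shScr, 2 and 3 with shTet1 and 11 and 3 with shTet2. Its log2 change against shScr was 0.17 in shTet1 and -0.16 in shTet2, and the difference between the knockdowns was 0.33 (limma adjusted p = 0.532). The second was the L1VL subgroup among scattered reads, which made up 9.80% of them in shScr on average, 10.8% in shTet1 and 8.22% in shTet2, over 117 reads. That difference between knockdowns was not tested. Both rest on few reads per library, and both knockdowns share the shScr libraries.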

How the results depend on the processing

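The differences between old and L1Md copies within a library kept their direction under every alternative run, except for the first 1000 bp of the copy. That difference was -8.92 percentage points with reads of the same position, strand and length counted once, -17.9 without the leading old and L1Md copies, -20.1 outside the 3 L1Md copies, -11.1 for scattered old reads and 1.39 for reads of 18 to 32 nt (exact permutation test, p = 0.281). The antisense difference outside the 3 L1Md copies was 10.2 and the 21 to 23 nt difference for scattered reads was -4.00 (exact permutation test, p = 0.0625 for each). In the comparisons of scattered old reads, the L1Md reads were not divided into kinds. With a library left out, 5 libraries allow no p below 0.0625, and the ranges were 30.3 to 33.9 (antisense), -1.14 to -0.858 (21 to 23 nt), -6.09 to -4.00 (24 to 32 nt), 8.60 to 9.86 (first 1000 bp) and 45.2 to 47.4 (15 to 19 nt, all L1Md copies, 46.0 with all libraries).

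With a library left out, knockdown against shScr ranged from -8.60 to 2.31 percentage points for the antisense share in shTet2, from -0.335 to 0.649 and from -2.05 to 1.36 for 21 to 23 nt in shTet1 and shTet2, and from -1.06 to 2.62 and from -0.874 to 2.81 for the first 1000 bp. The 21 to 23 nt share was -1.51 in shTet1 for scattered reads and 0.134 in shTet2 with reads counted once. Counted once, 1 class passed adjusted p 0.05 in shTet1 (L1VL1), and of 20 copies tested 6 passed in shTet1 and 6 in shTet2, of which 0 and 1 were old (the Rps20-like Lx5 copy, 0.77, limma adjusted p = 0.0185). All of these were higher in the knockdown. Counting once removes more reads where a library lists more. It took old L1 reads from 897 to 547 in the second shScr library and from 108 to 84 in the first shTet1 library. Its part in these calls was not tested.

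Log2 differences that did not pass changed sign for Lx5 in shTet1 (0.23 without the leading copies, 0.21 without TMM, -0.21 to 0.17 with a library left out) and for L1VL1 in shTet1 (-1.24 for 18 to 32 nt, -0.54 to 0.80) and shTet2 (0.01 counted once, -1.48 to 0.58). They also did for L1_Mur1 in shTet1 (-0.10 counted once) and shTet2 (-0.21 counted once, -0.10 to 0.77), Lx2 in shTet1 (-0.14 to 0.72) and shTet2 (-0.17 for 18 to 32 nt, -0.30 to 1.19), and Lx3_Mus in shTet1 (-0.96 to 0.12) and shTet2 (0.11 without TMM, 0.17 with only the groups compared, -0.35 to 0.36). The cause was not tested.

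When the replicate number was a block, 0 classes and 0 copies passed. The smallest limma adjusted p for a class was then 0.0854 in shTet1 and 0.055 in shTet2. The log2 difference of Lx3_Mus in shTet2 was 0.08 with the block, against -0.03 without it. Nothing in the labels pairs the libraries beyond a shared number, and the correlations of replicate deviations over 21 classes were 0.059, 0.586 and 0.435. With 2 libraries a group, exact tests cannot pass 0.05 between groups, and library totals were not used here, so levels of old L1 RNA per cell cannot be given.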
